A study of Mus musculus with 6 samples.

Results

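The enzymes described here make the amino acid serine from a glycolytic intermediate and move the single carbon it carries through folate. Of 9 genes chosen by name, 8 were among the 11175 genes of the expression table: Phgdh, Psat1, Psph, Shmt1, Shmt2, Mthfd1, Mthfd1l and Mthfd2. Aldh1l2 was not analysed here. All 8 passed the filter of a mean of at least 1 FPKM (fragments counted per transcript length and library size) that left 10887 genes for testing. RNA came from wild-type mouse splenic CD8+ T cells, the cytotoxic lymphocyte lineage, after 48 h of stimulation with antibodies to CD3 and CD28, which stand in for antigen and costimulation. In 3 libraries DOPAC (3,4-dihydroxyphenylacetic acid, a breakdown product of dopamine) was present, and 3 control libraries had none. The labels give no dose, solvent, mouse strain or age and do not say whether replicates came from different mice or cultures. Every p-value here rests on library-to-library spread alone, and that spread may be technical.

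Serine is made in sequence by phosphoglycerate dehydrogenase (Phgdh), phosphoserine aminotransferase (Psat1) and phosphoserine phosphatase (Psph). Serine hydroxymethyltransferase then passes a carbon from serine to tetrahydrofolate and leaves glycine, in mitochondria through SHMT2 and in the cytosol through SHMT1. In mitochondria MTHFD2 oxidizes the folate-bound carbon and MTHFD1L releases it as formate. MTHFD1, a cytosolic enzyme with several activities, takes up formate again for the synthesis of purines and thymidylate. Activated T cells are known to raise this pathway as they begin to divide, and the transcription factor ATF4 is a known inducer of several of its genes.

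Psat1, Psph, Mthfd2 and Mthfd1l had higher means with DOPAC than in the controls, by similar proportions, while Phgdh, Shmt2, Shmt1 and Mthfd1 had means within a few percent of the controls. In the 4 genes of the first set all 3 DOPAC libraries lay above all 3 controls, as in 12.4% of all tested genes. In the second set the groups overlapped. No gene of the table passed the adjusted threshold, and the 4 higher genes had a limma adjusted p of 0.801 each. The means of the first set differed by 34.3% for Psat1, 33.9% for Psph, 31.8% for Mthfd2 and 33.1% for Mthfd1l. The means of the second set differed by 5.70% for Phgdh, -0.606% for Shmt2, 0.0454% for Shmt1 and -2.17% for Mthfd1. In control replicate 1, which stood apart from the other libraries, Psat1, Mthfd2 and Mthfd1l had their lowest values. Without it the log2 fold changes were 0.29 for Psat1, 0.20 for Mthfd1l, 0.31 for Mthfd2 and 0.40 for Psph. With all 6 libraries they were 0.44, 0.44, 0.39 and 0.38, so the likeness of the 4 proportions depended on that library. In such bulk RNA a change in the share of cells and a change in RNA per cell cannot be told apart.

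**Figure D1:**
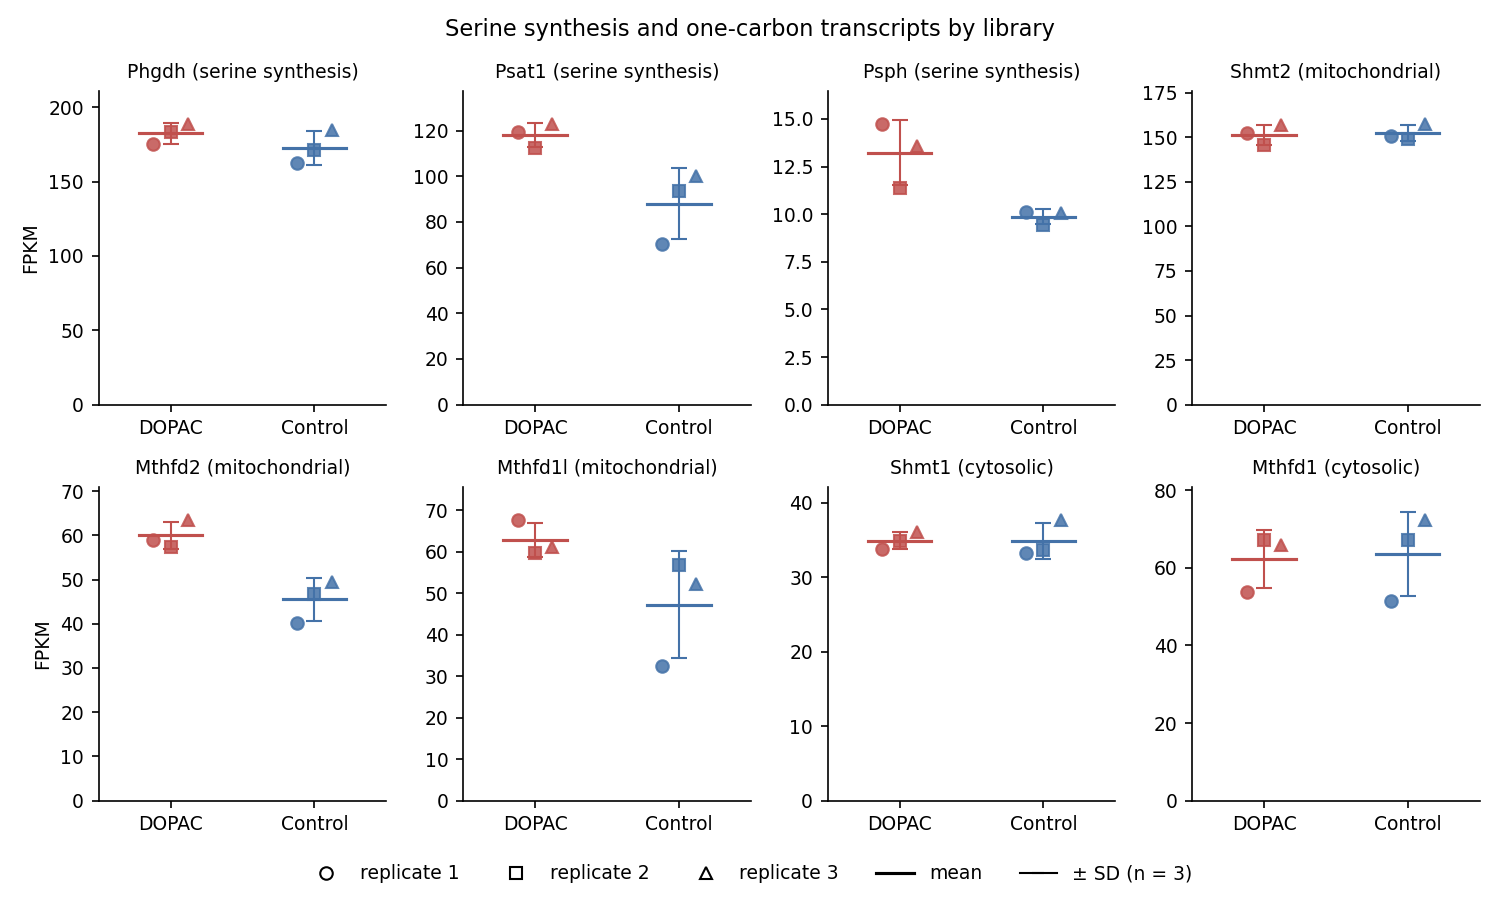
Transcript level in FPKM (linear axis from 0) of the 8 enzymes in each of the 3 DOPAC and 3 control libraries, with replicate numbers as symbols, the mean as a horizontal line and the SD as an error bar. Psat1 lay between 112 and 123 FPKM with DOPAC and between 70.5 and 100.1 FPKM in the controls, while Shmt2 lay between 145 and 157 FPKM with DOPAC and between 149 and 157 FPKM in the controls.

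The upstream sequence of 6 of these genes is shown because 4 of them measured higher together and the other two, Phgdh and Shmt2, act in the same pathway with overlapping groups. Each run holds the 250 bases before the transcript start that RefSeq gives on GRCm38.p6, 5′ to 3′ on the gene's own strand, and the capitals mark CCAAT or its reverse complement ATTGG. The windows of Psat1 and Mthfd2 lie well inside the gene spans of another annotation, GENCODE M21, given below. The Psph window lies mostly inside its span, with both marked copies, and the last bases of the Phgdh window lie inside its span. The Shmt1 window, which is not printed, lies inside its span too. Sequence before the outer ends of the Psat1, Mthfd2 and Shmt1 spans was not looked at. The windows were chr19:15925060-15925309 (minus strand, the first of 2 starts) for Psat1, chr5:129787254-129787503 (minus) for Psph, chr6:83317605-83317854 (minus) for Mthfd2, chr10:3972825-3973074 (plus) for Mthfd1l, chr3:98339970-98340219 (minus) for Phgdh and chr10:127522445-127522694 (minus) for Shmt2.
Psat1: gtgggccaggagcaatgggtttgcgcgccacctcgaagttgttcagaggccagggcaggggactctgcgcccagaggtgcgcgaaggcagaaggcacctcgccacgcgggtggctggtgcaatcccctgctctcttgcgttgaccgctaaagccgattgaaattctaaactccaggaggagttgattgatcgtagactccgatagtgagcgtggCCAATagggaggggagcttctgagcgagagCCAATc
Psph: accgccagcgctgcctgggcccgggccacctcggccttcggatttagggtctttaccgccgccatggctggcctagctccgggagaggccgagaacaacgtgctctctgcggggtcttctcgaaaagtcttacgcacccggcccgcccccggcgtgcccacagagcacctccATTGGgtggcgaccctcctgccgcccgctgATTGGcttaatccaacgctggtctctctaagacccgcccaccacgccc
Mthfd2: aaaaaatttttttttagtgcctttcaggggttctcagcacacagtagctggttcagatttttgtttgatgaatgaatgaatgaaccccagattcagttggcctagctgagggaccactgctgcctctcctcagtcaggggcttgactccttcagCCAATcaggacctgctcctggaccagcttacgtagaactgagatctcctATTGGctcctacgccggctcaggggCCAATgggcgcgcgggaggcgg
Mthfd1l: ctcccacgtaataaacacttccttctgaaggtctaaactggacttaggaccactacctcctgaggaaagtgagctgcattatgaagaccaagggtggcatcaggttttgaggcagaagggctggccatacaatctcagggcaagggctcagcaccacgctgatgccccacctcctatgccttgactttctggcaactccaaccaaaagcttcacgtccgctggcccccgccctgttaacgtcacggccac
Phgdh: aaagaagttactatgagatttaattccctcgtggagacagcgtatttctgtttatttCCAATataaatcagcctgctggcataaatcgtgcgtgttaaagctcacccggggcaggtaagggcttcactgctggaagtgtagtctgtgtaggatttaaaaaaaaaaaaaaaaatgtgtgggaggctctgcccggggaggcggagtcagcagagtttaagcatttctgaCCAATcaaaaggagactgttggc
Shmt2: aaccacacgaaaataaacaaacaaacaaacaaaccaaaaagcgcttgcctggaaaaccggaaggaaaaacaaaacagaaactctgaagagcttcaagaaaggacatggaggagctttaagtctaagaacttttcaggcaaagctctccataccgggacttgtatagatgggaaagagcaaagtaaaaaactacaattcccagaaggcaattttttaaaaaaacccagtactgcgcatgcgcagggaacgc

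CCAAT was looked for after these sequences had been read. It occurred on either strand in 33.9% of the 32851 RefSeq promoter windows cut to the same 250 bases. Mthfd2 held 3 copies, a number reached by 2.79% of the windows. Psat1 (first start), Psph and Phgdh held 2 copies each, which 10.1% of the windows reached, Shmt1 and Mthfd1 held 1 each, and Mthfd1l, Shmt2 and the second Psat1 start held 0. Phgdh, whose groups overlapped, thus held it, and Mthfd1l, whose groups did not, held none in this window. Other motifs were searched on both strands, TGATGNAA, the core of a composite element bound by ATF4 with C/EBP proteins, and CACGTG, the E-box bound by MYC. They occurred in 3.45% and 6.02% of all windows and 0 of the 9 windows of the 8 enzymes. With no match of either, no overlap between motifs arose in these windows. The matches describe the letters of the windows only.

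Phgdh (chromosome 3, 98313170 to 98339990; positions are on GRCm38, that is mm10, from GENCODE M21) encodes the enzyme that commits 3-phosphoglycerate to serine. It had the highest level of the 8, with 175, 183 and 189 FPKM in DOPAC replicates 1 to 3, against 162, 171 and 185 FPKM in control replicates 1 to 3. The lowest DOPAC library lay below the highest control, so the groups overlapped. The log2 fold change, computed from log2(FPKM + 1), was 0.081 (95% interval -0.19 to 0.35), with 52.6% of all tested genes at a lower value. It was 0.038 without control replicate 1 and 0.13 without control replicate 3.

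Psat1 (chromosome 19, 15904678 to 15947337) encodes the aminotransferase that takes its nitrogen from glutamate. It measured 119, 112 and 123 FPKM in DOPAC replicates 1 to 3, against 70.5, 93.4 and 100.1 FPKM in control replicates 1 to 3. The groups did not overlap, and the lowest control was replicate 1. Means were 118 ± 5.31 FPKM with DOPAC and 88.0 ± 15.5 FPKM in the controls (SD, n = 3 each). The log2 fold change was 0.44 (95% interval 0.057 to 0.81; limma unadjusted p = 0.0298, adjusted p = 0.801), with 95.9% of tested genes at a lower value. Without control replicate 1 it was 0.29 (95% interval 0.10 to 0.47; limma unadjusted p = 0.00874).

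Psph (chromosome 5, 129765558 to 129787449) encodes the phosphatase of the last step. It had the lowest level of the 8, with 14.7, 11.4 and 13.6 FPKM in DOPAC replicates 1 to 3, against 10.1, 9.41 and 10.1 FPKM in control replicates 1 to 3. The groups did not overlap, and here the spread was wider with DOPAC. Means were 13.2 ± 1.70 FPKM with DOPAC and 9.88 ± 0.406 FPKM in the controls (SD, n = 3 each). The log2 fold change was 0.38 (95% interval 0.053 to 0.71; limma unadjusted p = 0.0289, adjusted p = 0.801) and 0.40 without control replicate 1. In GENCODE M21 452 bp of Psph exons lie opposite exons of Cct6a, a chaperonin subunit gene, and the library kits named in the labels do not mark strand, so the Psph level is uncertain. Cct6a measured 244, 235 and 247 FPKM in DOPAC replicates 1 to 3, against 180, 200.3 and 232 FPKM in control replicates 1 to 3. Its groups did not overlap either, with a log2 fold change of 0.25 (95% interval -0.059 to 0.56). Its part in the Psph value was not tested.

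Shmt2 (chromosome 10, 127517123 to 127522444) encodes the mitochondrial enzyme that opens the folate branch. Its level was second to that of Phgdh, with 152, 145 and 157 FPKM in DOPAC replicates 1 to 3, against 151, 149 and 157 FPKM in control replicates 1 to 3. Both groups covered nearly the same range. For Shmt2 the log2 difference was -0.0090 (95% interval -0.26 to 0.24), and its sign turned with quantile normalization.

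Mthfd2 (chromosome 6, 83305691 to 83325908) encodes the mitochondrial dehydrogenase and cyclohydrolase best known for its high level in embryos and dividing cells. It measured 59.0, 57.5 and 63.4 FPKM in DOPAC replicates 1 to 3, against 40.2, 46.8 and 49.5 FPKM in control replicates 1 to 3. The groups did not overlap. Means were 60.0 ± 3.09 FPKM with DOPAC and 45.5 ± 4.80 FPKM in the controls (SD, n = 3 each). For Mthfd2 the log2 fold change was 0.39 (95% interval 0.087 to 0.70; limma unadjusted p = 0.0192, adjusted p = 0.801), the smallest unadjusted p of the 8. It was 0.31 without control replicate 1 (95% interval 0.13 to 0.49).

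Mthfd1l (chromosome 10, 3973118 to 4167081) encodes the mitochondrial formate-releasing enzyme. It measured 67.6, 59.8 and 61.2 FPKM in DOPAC replicates 1 to 3, against 32.6, 56.8 and 52.3 FPKM in control replicates 1 to 3. The groups did not overlap, but the gap between the lowest DOPAC library and the highest control was narrow, and control replicate 1 lay far below the other controls. The log2 fold change was 0.44 (95% interval -0.080 to 0.96; limma unadjusted p = 0.0847) with all 6 libraries. Without control replicate 1 it was 0.20 (95% interval -0.0034 to 0.40; limma unadjusted p = 0.0529).

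Shmt1 (chromosome 11, 60788104 to 60811718) encodes the cytosolic counterpart of SHMT2. It measured 33.8, 34.9 and 36.1 FPKM in DOPAC replicates 1 to 3, against 33.3, 33.7 and 37.7 FPKM in control replicates 1 to 3. Mthfd1 (chromosome 12, 76255298 to 76319803) measured 53.8, 67.1 and 66.0 FPKM in DOPAC replicates 1 to 3, against 51.5, 67.2 and 72.3 FPKM in control replicates 1 to 3. In both genes the groups overlapped, and for Mthfd1 replicate 1 was the lowest library of each group. The log2 fold changes were 0.0023 (95% interval -0.28 to 0.28) for Shmt1 and -0.024 (95% interval -0.43 to 0.39) for Mthfd1. With intervals of this width the data do not show that either gene was the same in both groups. The Shmt1 sign turned with quantile normalization, with equal medians and with the length trend removed. In GENCODE M21 184 bp of Shmt1 exons overlap Smcr8 on the other strand.

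**Figure D2:**
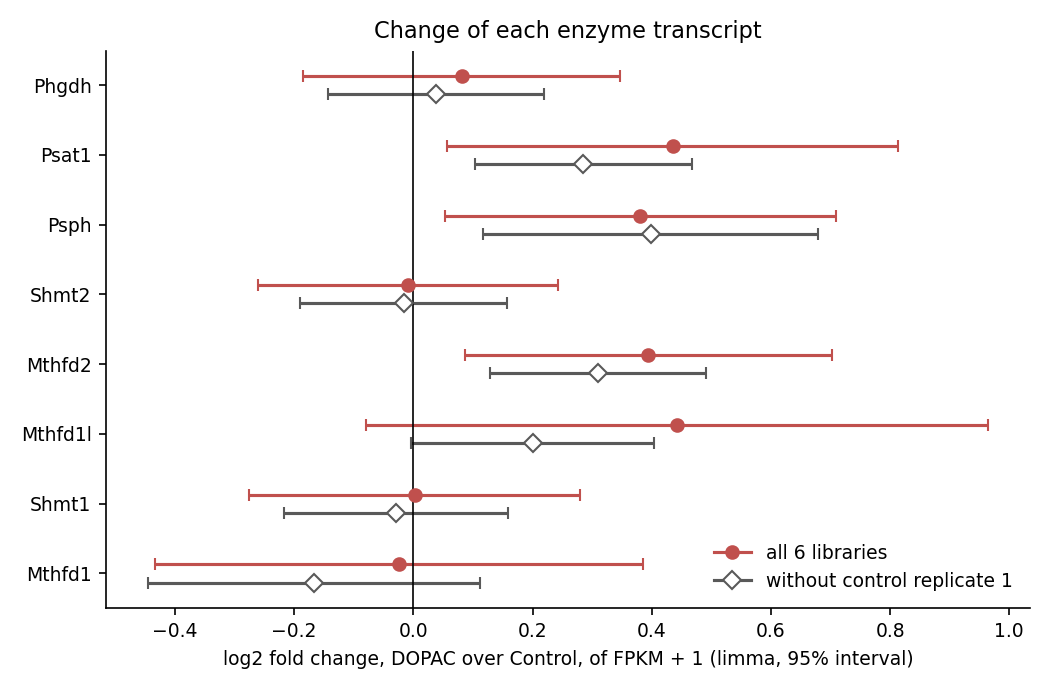
Log2 fold change of FPKM + 1, DOPAC over control, of each enzyme with its 95% limma interval, with all 6 libraries (filled circles) and without control replicate 1 (open diamonds). The intervals of Psat1, Psph and Mthfd2 lay above 0 in both fits, while Mthfd1l moved to 0.20 without that library.

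Among the 8 enzymes 3 (Psat1, Psph and Mthfd2) had an unadjusted limma p under 0.05, each higher with DOPAC, beside 297 of 10887 genes or 2.73% over the whole table. In the other direction the count was 0 of 8, beside 1.46%. Groups did not overlap, with DOPAC higher, in 4 of 8, beside 12.4% over the table, and with DOPAC lower in 0 of 8, beside 4.80%. At an adjusted p under 0.05 limma called 0 of 8, and 0 of 10887 genes (0%), where 456 had an unadjusted p under 0.05. The authors' deposited table, which rests on the same FPKM values, held 0 genes at an adjusted p under 0.05 and 482 at an unadjusted p under 0.05. Its unadjusted p-values were 0.0326 for Psat1, 0.0274 for Psph, 0.0210 for Mthfd2 and 0.0865 for Mthfd1l. The median log2 fold change was 0.23 over the 8 enzymes and 0.066 over all tested genes. Positive values were found for 6 of 8 and for 6761 of 10887 genes. Without control replicate 1 the medians were 0.12 and -0.011, with 5 of 8 and 5146 of 10887 positive, and the same 3 enzymes had an unadjusted p under 0.05, beside 606 genes higher and 968 lower. With other libraries left out the count was 1 without DOPAC replicate 1 (Mthfd2), 1 without DOPAC replicate 2 (Psph), 0 without DOPAC replicate 3 and 2 without control replicate 3 (Psat1 and Mthfd2). Without control replicate 2 it was 3, with Mthfd1l (limma unadjusted p = 0.0391) in place of Psph (limma unadjusted p = 0.0822). Over all genes the same fits had 123 higher and 128 lower without DOPAC replicate 1, 170 and 103 without DOPAC replicate 2, and 144 and 87 without DOPAC replicate 3. They had 390 higher and 262 lower without control replicate 2, and 296 and 143 without control replicate 3. The 8 genes were picked with earlier results of these data known, so these counts describe them and are no test of the set.

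Levels between enzymes can be compared roughly because FPKM are per transcript length, but the lengths the authors used are not given. The level of Psph is uncertain for the reason stated above. The order of the means with DOPAC was Phgdh, Shmt2, Psat1, Mthfd1l, Mthfd1, Mthfd2, Shmt1 and Psph. Mthfd1l, Mthfd1 and Mthfd2 had 62.9 ± 4.17, 62.3 ± 7.37 and 60.0 ± 3.09 FPKM with DOPAC (SD, n = 3 each) and did not differ beyond their spread. In the controls the order was the same but for Mthfd1, at 63.7 ± 10.8 FPKM, which came before Mthfd1l at 47.2 ± 12.9 FPKM (SD, n = 3 each). Phgdh lay above 98.0% of the tested genes in mean level over the 6 libraries, Shmt2 above 97.6% and Psat1 above 96.5%, while Psph lay above 62.7%.

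Ratios within a library do not depend on its overall scale, and the pairs given here were chosen with the values known and carry no test. The ratio of Psat1 to Phgdh was 0.681, 0.612 and 0.651 in DOPAC replicates 1 to 3, against 0.434, 0.546 and 0.542 in control replicates 1 to 3. That of Mthfd2 to Shmt2 was 0.388, 0.395 and 0.405 with DOPAC, against 0.267, 0.314 and 0.315 in the controls. In both ratios every DOPAC library lay above every control, and control replicates 2 and 3 were close together while replicate 1 was lower. The ratio of the mitochondrial to the cytosolic hydroxymethyltransferase, Shmt2 to Shmt1, was 4.51, 4.17 and 4.34 with DOPAC, against 4.53, 4.42 and 4.18 in the controls. These values overlapped over nearly their whole range. Groups also overlapped in the ratio of Psph to Phgdh, at 0.0841, 0.0620 and 0.0720 with DOPAC, against 0.0625, 0.0551 and 0.0547 in the controls, and in that of Mthfd1l to Mthfd2, at 1.15, 1.04 and 0.966 with DOPAC, against 0.811, 1.21 and 1.06 in the controls. They did not overlap in the ratio of Mthfd2 to Mthfd1, at 1.10, 0.856 and 0.961 with DOPAC, against 0.780, 0.697 and 0.685 in the controls. The ratio of Mthfd1l to Mthfd1 was 1.26, 0.891 and 0.928 with DOPAC, against 0.632, 0.845 and 0.724 in the controls.

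**Figure D3:**
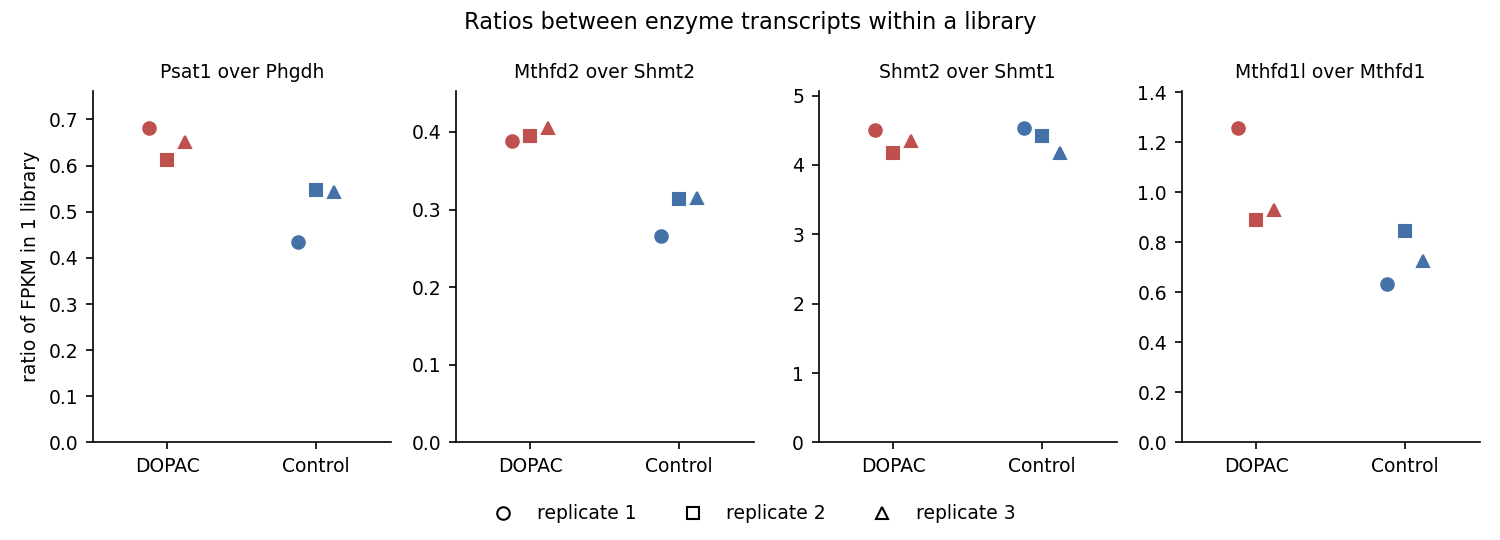
Ratio of FPKM between pairs of enzyme transcripts within each library (linear axes from 0), for 3 DOPAC and 3 control libraries with replicate numbers as symbols. Psat1 over Phgdh and Mthfd2 over Shmt2 were above all controls in all 3 DOPAC libraries, while Shmt2 over Shmt1 ran from 4.17 to 4.51 with DOPAC and from 4.18 to 4.53 in the controls.

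Summed FPKM of Phgdh, Psat1 and Psph were 309, 307 and 325 in DOPAC replicates 1 to 3, against 243, 274 and 295 in control replicates 1 to 3. Summed FPKM of Shmt2, Mthfd2 and Mthfd1l were 279, 263 and 281 with DOPAC, against 224, 253 and 259 in the controls. Summed FPKM of Shmt1 and Mthfd1 were 87.6, 102 and 102 with DOPAC, against 84.8, 101 and 110.0 in the controls. Unscaled, the first and second sums separated the groups, the second narrowly (263 against 259), and the third did not. These sums were not divided by the FPKM total of each library, and the separation depended on library scale. Relative to that total, DOPAC replicate 1 lay below control replicate 3 in the first sum and below control replicate 2 in the second. All 8 together made up between 0.214% and 0.242% of the FPKM of a DOPAC library, against between 0.177% and 0.228% in the controls, which overlapped.

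Control replicate 1 differed from the rest in a way that touches these genes. Its Pearson correlation with the other 5 libraries over genes, which are not independent replicates, was 0.899 to 0.917, against 0.974 to 0.992 among those 5. Its log2 deviation from the mean of the other 5 was -0.85 for Mthfd1l, -0.62 for Psat1, -0.44 for Mthfd2, -0.33 for Mthfd1, -0.19 for Psph, -0.15 for Phgdh, -0.078 for Shmt1 and -0.013 for Shmt2. Over the 2926 tested genes whose exon length lay within that of the 8 enzymes (2486 to 4442 bp) the median deviation was -0.20, with quartiles of -0.42 and 0.059. Over all 10887 genes the median was -0.27 and the lower quartile -0.59. Mthfd1l and Psat1 lay below the lower quartile of both sets, and Mthfd2 below that of genes of like length but not below that of all genes. What set that library apart was not tested.

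T cell genes marked all libraries. The summed level of Cd8a and Cd8b1 was 313 to 358 FPKM with DOPAC and 323 to 355 FPKM in the controls, and all 6 of 6 general T cell genes were measured, with sums of 398 to 451 and 393 to 474 FPKM. Helper T cell and neutrophil markers (0 of 2 and 0 of 5) were not analysed here. Of macrophage markers 2 of 6 were measured (Cd68 and Lyz2), with sums of 4.45 to 12.4 FPKM with DOPAC and 14.2 to 33.8 FPKM in the controls. Of fibroblast markers 3 of 6 were measured (Col1a1, Col1a2 and Col3a1), with 0.330 to 16.0 and 25.7 to 27.9 FPKM. Of B cell markers 1 of 5 was measured (Cd79b), at 1.47 to 2.61 and 1.54 to 2.49 FPKM, of erythroid markers 2 of 5 (Hba-a1 and Hbb-bs), at 0.280 to 3.02 and 2.72 to 10.4 FPKM, and of endothelial markers 1 of 3 (Pecam1), at 5.53 to 6.33 and 3.89 to 6.98 FPKM, each with DOPAC first and control second. Macrophage and fibroblast sums were lower in every DOPAC library, and their part in the enzyme values was not tested.

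Around these enzymes 51 further genes of serine, glycine, folate and methionine metabolism were looked at, of which 39 were tested. Of these 3 had an unadjusted limma p under 0.05, each higher with DOPAC (beside 2.73% of all genes), 0 were lower, and 0 passed the adjusted threshold. The median log2 fold change was 0.11 with 31 of 39 positive, against 0.066 over all genes, and without control replicate 1 it was -0.033 with 16 of 39 positive, against -0.011. Without that library 5 of 39 were higher and 1 was lower at an unadjusted p under 0.05, beside 606 higher and 968 lower of all 10887 genes. The 5 were Cth, Slc1a4, Slc6a9, Atf4 and Ddit3, and the 1 was Sfxn3, named because they passed there. With any other library left out 2 to 4 of the 39 were higher and 0 lower.

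The carriers of serine and glycine held 2 of the 3 genes (8 of 9 tested, 7 positive). Slc1a4, a neutral amino acid exchanger that carries serine, measured 5.16, 5.01 and 6.21 FPKM in DOPAC replicates 1 to 3, against 2.63, 3.62 and 3.70 FPKM in control replicates 1 to 3. Slc6a9, a glycine transporter, measured 2.85, 2.06 and 2.85 FPKM with DOPAC, against 1.47, 1.67 and 1.76 FPKM in the controls. Groups did not overlap in either gene, and both were at low levels. Their log2 fold changes were 0.59 (95% interval 0.21 to 0.96; 0.47 without control replicate 1) and 0.44 (95% interval 0.10 to 0.78; 0.39 without it). Slc6a9 had a limma unadjusted p of 0.0598 without DOPAC replicate 1 and of 0.0725 without DOPAC replicate 3, so that 2 of the 39 genes remained under 0.05 in each of these fits. Sfxn3, a sideroflexin of the inner mitochondrial membrane, had -0.28 (95% interval -0.74 to 0.18), with -0.47 without control replicate 1 and -0.12 without control replicate 2.

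In the methionine cycle and transsulfuration list (9 of 11 tested, 7 positive) Cth had the highest log2 fold change of the 39 genes. It encodes cystathionine gamma-lyase, which releases cysteine, and measured 8.04, 5.14 and 7.08 FPKM in DOPAC replicates 1 to 3, against 3.19, 3.35 and 3.96 FPKM in control replicates 1 to 3. The groups did not overlap. Cth had a log2 fold change of 0.77, with a 95% interval of 0.34 to 1.20 and a limma unadjusted p of 0.00386, and the fold change ran from 0.65 to 0.93 when each library was left out in turn. Ahcyl2, related to adenosylhomocysteinase, had 0.24 and Mtrr, which reactivates methionine synthase, 0.23. Without control replicate 1 these were 0.048 and 0.059.

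The folate list (7 of 12 tested, 6 positive) held no gene with an unadjusted p under 0.05. On the log2 fold change scale Slc25a32, the mitochondrial folate carrier, had 0.22 (95% interval -0.23 to 0.68; 0.041 without control replicate 1) and Ggh, which trims folate polyglutamates, 0.11 (-0.17 to 0.39). Of the glycine cleavage system 2 of 4 were tested. Dld, a subunit shared with pyruvate dehydrogenase, had 0.37 (-0.12 to 0.85; 0.15 without control replicate 1) and Gcsh, the lipoyl carrier protein, -0.059 (-0.37 to 0.26).

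The enzymes that spend folate carbons had values near 0. Gart and Atic of purine synthesis had 0.10 (95% interval -0.40 to 0.60) and 0.052 (-0.29 to 0.40), and Tyms, thymidylate synthase, -0.034 (-0.32 to 0.25). Gart and Atic had -0.11 and -0.072 without control replicate 1. Among enzymes that use serine directly (5 of 7 tested, 4 positive), Sptlc2 and Sptlc1 of sphingolipid synthesis had 0.17 (-0.13 to 0.46) and 0.11 (-0.35 to 0.58), and Ptdss2, a phosphatidylserine synthase, 0.084 (-0.22 to 0.39). Sptlc1 had -0.093 without control replicate 1.

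All 5 regulators were tested, and 4 had positive values. Atf4 measured 116, 113 and 124 FPKM in DOPAC replicates 1 to 3, against 120.4, 92.0 and 104 FPKM in control replicates 1 to 3. Control replicate 1 lay among the DOPAC values, so the groups overlapped. The Atf4 log2 fold change came to 0.16 (95% interval -0.16 to 0.49) with all 6 libraries, to 0.26 without control replicate 1 (limma unadjusted p = 0.0227) and to 0.070 without control replicate 2 (limma unadjusted p = 0.641). Ddit3, the ATF4-induced factor CHOP, had 0.29 (95% interval -0.0084 to 0.58) and 0.36 without control replicate 1. Nfe2l2, which encodes NRF2, had 0.31 (95% interval -0.12 to 0.74) and 0.13 without it.

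**Figure D4:**
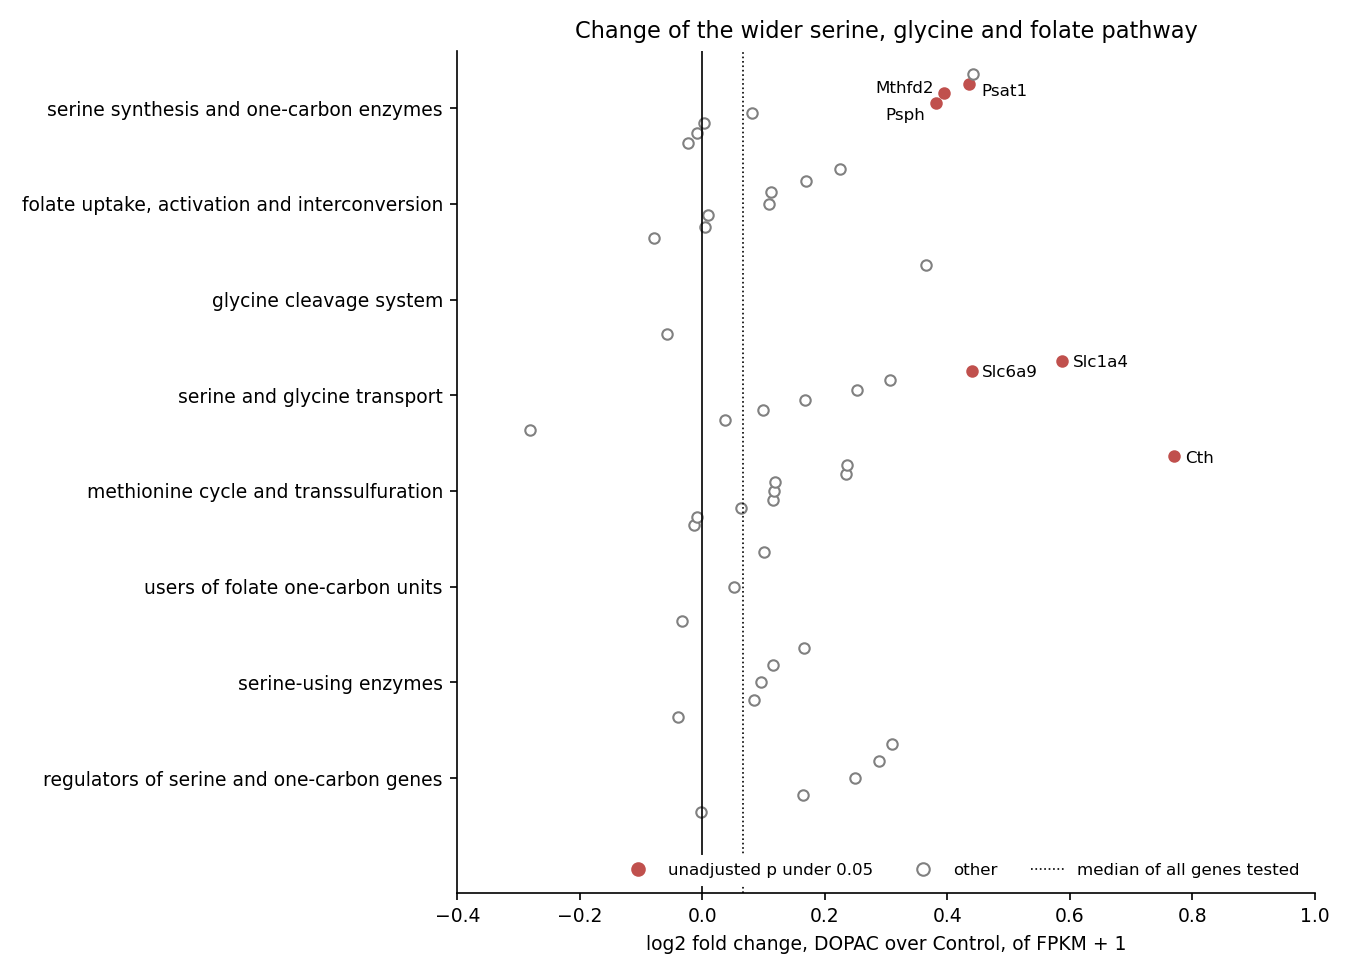
Log2 fold change of FPKM + 1, DOPAC over control, of the 8 enzymes (top row) and of 39 further genes in 7 lists, 1 point per gene, filled where the unadjusted limma p was under 0.05. The dotted line marks the median of all tested genes (0.066), and the filled points are Psat1, Mthfd2, Psph, Slc6a9, Slc1a4 and Cth.

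The genes whose profiles over the 6 libraries lay nearest to those of the 4 higher enzymes were found by the root mean square distance of centred log2(FPKM + 1). Nearest to Psat1 were Lysmd3 (0.026), Tars, the threonyl-tRNA synthetase gene (0.031), and Hprt, of purine salvage (0.035), where Psat1 itself varied by 0.27 about its mean. Nearest to Mthfd1l (0.33 about its mean) were Jaml (0.035), Gpalpp1 (0.039) and mt-Nd5, a mitochondrially encoded subunit of complex I (0.042). Nearest to Psph (0.22) were Tspan6 (0.046), Gm9892 (0.054) and Cox18 (0.055), and nearest to Mthfd2 (0.22) Gm12346 (0.037), Gm50010 (0.039) and C330018D20Rik (0.039). No enzyme of the 8 was among the nearest 3 of another. Only 3 were taken for each from all tested genes, so this does not show that the enzymes' profiles differ. Control replicate 1 had the largest deviation from the other libraries in Psat1 (-0.62), Mthfd1l (-0.85) and Mthfd2 (-0.44). Nearness to these enzymes thus rests in large part on that library and does not show a shared change with DOPAC.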

How the data were processed

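Per the file headers, the authors deposited 1 FPKM value for each gene in each library. Their table also holds a deposited log2 fold change and deposited p-values, raw and adjusted. Per the labels' protocols, cDNA was made with a SMART-Seq HT kit and libraries with Nextera XT, and the mm10 build, cutadapt 1.9 and HISAT2 2.2.1 are listed, per the submitters' processing notes. Which estimator, annotation, gene filter and test the authors chose is not given in the sources used here. Without read counts the depth behind an FPKM is unknown, and counting error was not computed. FPKM sums were 283818 to 316035 per library. Library names gave each sample its group and number, and the title of 1 DOPAC library misspells the treatment.

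From these values log2(FPKM + 1) was computed, which understates changes of low genes. The 288 genes with a mean under 1 FPKM were left out. R 4.3.3 with limma 3.58.1 fitted DOPAC against control over 10887 genes with a mean-variance trend, with Benjamini-Hochberg adjustment and a threshold of 0.05. The fit was tested on simulated data. GENCODE M21 (GRCm38) supplied gene positions and the lengths of exons, and RefSeq on GRCm38.p6 the promoter windows, which held all 8 enzymes by symbol. Figures used Python 3.11.15 and matplotlib 3.10.9.

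The 8 enzymes, the further lists and the tests were chosen with earlier results of these data known. All enzymes are named, and from each other list the 3 genes with the smallest p, of which 1 is not reported here. For the 4 enzymes with the largest log2 fold changes the 3 nearest profiles are named.

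Both groups are numbered 1 to 3. After subtraction of group means, libraries of the same number correlated at 0.34, 0.16 and 0.28 over genes, each above 0.1, which met the rule set for taking them as pairs. Unlike numbers correlated too, DOPAC 2 with control 3 at 0.19 and DOPAC 3 with control 2 at 0.24, the first above the 0.16 of DOPAC 2 with its own number. DOPAC 1 correlated at -0.28 with control 2 and at -0.33 with control 3. Control 1 correlated at -0.19 with DOPAC 2 and at -0.29 with DOPAC 3. The pattern thus set replicate 1 of both groups apart from replicates 2 and 3. Subtracting group means makes the deviations within a group cancel for each gene, so the negative values follow in part from the positive ones. Values and p-values in the text come from the fit without the block. The labels themselves mention nothing that same-numbered libraries share. The replicate block was an alternative, as were other pseudocounts, filters, normalizations and variance models and each library left out. A fit without control replicate 1 and with the block was added after seeing the data.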

Additional observations from a re-analysis of the deposited data

How the results depend on the processing

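The log2 fold changes of Psat1, Psph, Mthfd2, Mthfd1l and Phgdh kept their sign under every alternative run. The count of genes past the adjusted limma threshold was 0 in every alternative except library weights, which gave 2, and across libraries left out in turn it ran from 0 to 2, the 2 arising without control replicate 1. In both cases the 2 were Spp1 and Gm49510, named because they passed, both lower with DOPAC. With all 6 libraries and the replicate block the count of genes was 0 and the count of enzymes at an unadjusted p under 0.05 was 3, so there the block changed no call. Without control replicate 1 the fit with the block had 0 calls, with a lowest adjusted limma p of 0.132 in place of 0.00569. In that fit DOPAC replicate 1 had no control of its number, so the fold changes rested on replicates 2 and 3 alone. The loss of both calls therefore cannot be credited to the block by itself. That count of enzymes ran from 0 to 3 across libraries left out, and was 2 with equal medians, where Psph had an unadjusted limma p of 0.0565. With the length trend removed it was again 3, with Mthfd1l in place of Psph, at unadjusted limma p-values of 0.0351 and 0.0880. Signs turned for 3 enzymes near 0. Shmt1 had -0.016 with quantile normalization, -0.056 with equal medians, -0.071 with the length trend removed, -0.0064 without control replicate 1 with the replicate block, and -0.030 to 0.057 across libraries left out. Shmt2 had 0.013 with quantile normalization and -0.034 to 0.020 across libraries left out. Mthfd1 had -0.17 to 0.077 across libraries left out. Library weights gave 0.17 for Mthfd1l and 0.32 for Psat1, against 0.44 and 0.44, but the estimation of these weights stopped before its convergence tolerance, which bears on the 2 genes above as well. The causes were not tested. The depth behind the FPKM is unknown, so counting error could not be set beside these spreads.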
